A study of Mus musculus with 8 samples.

Results

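The genes of the G1 cell-cycle machinery described here are the D cyclins Ccnd1, Ccnd2 and Ccnd3, the E cyclins Ccne1 and Ccne2, the MYC family genes Myc, Mycn and Mycl, the kinase gene Cdk6 and the inhibitor gene Cdkn1b. They were chosen by name with their measured differences between 4OHT and vehicle libraries already known, from the 52636 gene identifiers of a table of RNA-seq read counts. All 10 of 10 passed the filter on low counts that left 18321 genes. The libraries came from mouse epiblast at embryonic day 5.5 with the genotype Sox2Cre;CRAFR26. CRAFR26 is a construct through which 4-hydroxytamoxifen (4OHT) induces the kinase ERK, and Sox2Cre is a Cre transgene known for its activity in the epiblast. Vehicle libraries and 4OHT libraries share this genotype, so no library lacked the construct. Embryos in IVC2 medium received 250 nM 4OHT for 4 h, or ethanol as vehicle, and the extraembryonic layers were then cut away. Controls carry a time of 0 h in their titles and 4 h of vehicle in their treatment label, so whether they were cultured as long as the 4OHT embryos is not settled here. Each library was made from 7 ng of RNA of 10 pooled epiblasts. There were 4 groups of 2 libraries: vehicle in clone 4, 4OHT in clone 4, vehicle in clone 8 and 4OHT in clone 8, which the design text names as biological clones. No label says whether the 2 libraries of a group came from separate litters, so p-values measure the spread between these pools.

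D cyclins bind CDK4 and CDK6 in the G1 phase of the cell cycle, and the active kinases phosphorylate the retinoblastoma protein, which releases E2F transcription factors. Cyclin E with CDK2 then drives entry into S phase, and the product of Cdkn1b, a KIP-type inhibitor, binds and restrains cyclin E and CDK2 complexes. MYC proteins pair with MAX on E-box DNA and promote growth; signalling through ERK is known to raise Ccnd1 transcription and to stabilise MYC protein in many cell types, and pluripotent cells of the early embryo divide fast with a short G1.

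Library totals were 33.3 to 38.0 megacounts (M) for vehicle and 56.4 to 72.5 M for 4OHT, so that the ranges did not overlap, and the members were read by 310 to 39266 counts per library. Replicates of every group differed by more than sampling noise, with 20.3 to 67.4 for the chi-square divided by its degrees of freedom. The labelled tissue was checked by 10 epiblast markers, which summed to 4678 to 5912 CPM, which are counts scaled to library size with none at 0; Pou5f1, which encodes a core pluripotency factor, stood at 435 to 888 CPM. Within clone 8, 3 of these 10 were called lower after 4OHT (Pou3f1, Utf1 and Pou5f1; edgeR adjusted p under 0.05). Of all tested genes, 8.6% were called lower there. Markers of the layers removed by dissection were present as well. The 15 visceral endoderm markers summed to 930 and 592 CPM in vehicle and 2786 and 3140 CPM in 4OHT libraries of clone 4, and to 2007 and 1995 CPM in vehicle and 505 and 1361 CPM in 4OHT libraries of clone 8. The 13 extraembryonic ectoderm markers summed to 1288 and 892 CPM, 1242 and 1306 CPM, 517 and 569 CPM, and 1260 and 1096 CPM in the same order of groups. None of these 28 markers was at 0 in any library. Within clone 8, 6 of the 15 visceral endoderm markers were called lower and 0 higher. Of the 13 extraembryonic ectoderm markers, 9 were called higher there and 0 lower, where 8% of all tested genes were called higher. Within clone 4, 0 markers of either layer were called. Visceral endoderm markers thus moved in opposite directions in the clones, and extraembryonic ectoderm markers were lowest in vehicle-treated clone 8; the part of either in the members' values was not tested. Mitochondrial genes took 1.35% and 1.19% of counts in the 4OHT libraries of clone 8 and 0.205% to 0.619% in the other 6 libraries, and ribosomal protein genes took 10.6% and 8.69% in the vehicle libraries of clone 8 and 5.43% to 7.56% in the other 6.

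The members differed widely in transcript level. Levels are compared here as CPM per kilobase of exons, over 8 libraries. The length joins the exons of all annotated transcripts of a gene, which can exceed the length of a single mRNA. Mycn was highest at 154 ± 19.2 (SD, n = 8), followed by Ccne1 at 121 ± 17.4, Myc at 75.3 ± 20.2, Ccnd1 at 45.2 ± 11.3 and Ccnd3 at 20.6 ± 2.92. Ccne2 stood at 14.3 ± 3.31, Mycl at 8.33 ± 1.83, Ccnd2 at 6.09 ± 3.38, Cdkn1b at 2.33 ± 1.03 and Cdk6 at 1.56 ± 0.333 (SD, n = 8). In this order Mycn was above Ccne1, Ccnd1 above Ccnd3, Ccnd3 above Ccne2 and Ccnd2 above Cdkn1b in 8 of 8 libraries. The other neighbours overlapped: Ccne1 exceeded Myc in 7, Myc exceeded Ccnd1 in 6, Ccne2 exceeded Mycl in 7, Mycl exceeded Ccnd2 in 7 and Cdkn1b exceeded Cdk6 in 7 libraries. The order of Ccnd1 (4709 bases) and Ccnd3 (8775 bases) depended on the length used. In CPM, Ccnd3 was above Ccnd1 in both 4OHT libraries of clone 4 (187 and 213 against 173 and 176). The same held in 4OHT clone 8 replicate 2 (178 against 145 CPM), and Ccnd3 was below Ccnd1 in the other libraries. Mycn, Ccne1 and Myc lay at percentiles 97.9, 97.2 and 95.0 of all tested genes by this measure, whereas Cdkn1b and Cdk6 lay at 53.2 and 47.1.

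Upstream sequence from RefSeq (GRCm38.p6) was matched for 6 of the 10 genes, in 7 windows of 250 bases before an annotated start; Ccnd1, Ccnd2, Ccne2 and Myc had no entry. The windows of the pair with the highest levels are shown, ending before the GENCODE start of the gene as well, written 5′ to 3′ on the gene's strand, with capitals for every motif match. Mycn is on the minus strand at chr12:12941915-12942086 and Ccne1 on the minus strand at chr7:38107535-38107740.
Mycn: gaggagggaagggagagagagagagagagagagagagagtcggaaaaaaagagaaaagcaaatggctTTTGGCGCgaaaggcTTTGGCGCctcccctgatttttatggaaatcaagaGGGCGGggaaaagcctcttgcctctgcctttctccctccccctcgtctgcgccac
Ccne1: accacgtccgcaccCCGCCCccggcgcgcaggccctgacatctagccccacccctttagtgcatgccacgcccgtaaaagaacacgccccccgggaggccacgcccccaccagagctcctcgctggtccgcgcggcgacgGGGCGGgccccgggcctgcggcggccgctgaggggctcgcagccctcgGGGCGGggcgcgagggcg
The Mycn stretch holds 2 copies of TTTGGCGC, a form of the E2F motif, and 1 copy of GGGCGG, the SP1 motif; the Ccne1 stretch holds 3 matches to GGGCGG, 1 of them on the other strand. Over the whole windows, searched on both strands, TTTGGCGC was present for Mycn alone among the 7 windows and in 0.417% of 32851 RefSeq windows of the same length. GGGCGG was present in 6 of the 7 windows, against 32.7% of all. The E-box CACGTG, the motif bound by MYC and MAX, was found for Cdk6 alone (6.02% of all windows), and CCGGAA, the core of ETS factors through which ERK often acts, for the downstream start of Ccnd3 alone (12% of all windows). TTTCCCGC, a second E2F form, TGANTCA (AP-1) and TGACGTCA (CRE) were found in 0 of the 7 windows. CCAAT was found for Cdkn1b and Ccnd3 (33.8% of all) and TATAAA for Mycl and Cdk6 (12.4% of all). Matches did not overlap each other in the stretches shown, and a match is a description of letters only.

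The study compared 4OHT with vehicle in each clone. The members and this comparison were chosen with the measured response known, so the values within clones describe and do not test it. In the plot of CPM by library, Ccnd1 and Mycl are the genes whose 4 4OHT libraries all lie below all 4 vehicle libraries; 9% of the tested genes were separated in this way, 3.42% higher and 5.58% lower. Within clone 4, both 4OHT libraries lay outside both vehicle libraries for 4 of 10 members, all lower (Ccnd1, Ccnd2, Mycl and Cdkn1b), against 47.5% of tested genes (23.7% higher, 23.8% lower). Within clone 8 this held for 6 of 10, with Ccnd3, Ccne2 and Myc higher and Ccnd1, Mycl and Cdkn1b lower, against 60% of tested genes (31.7% higher, 28.3% lower). Ccnd1, Mycl and Cdkn1b were lower in this way in both clones, as were 8.69% of tested genes, with 7.29% higher in both and 16% in all. The choice of members used this contrast, and nothing is read from these counts.

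**Figure D1:**
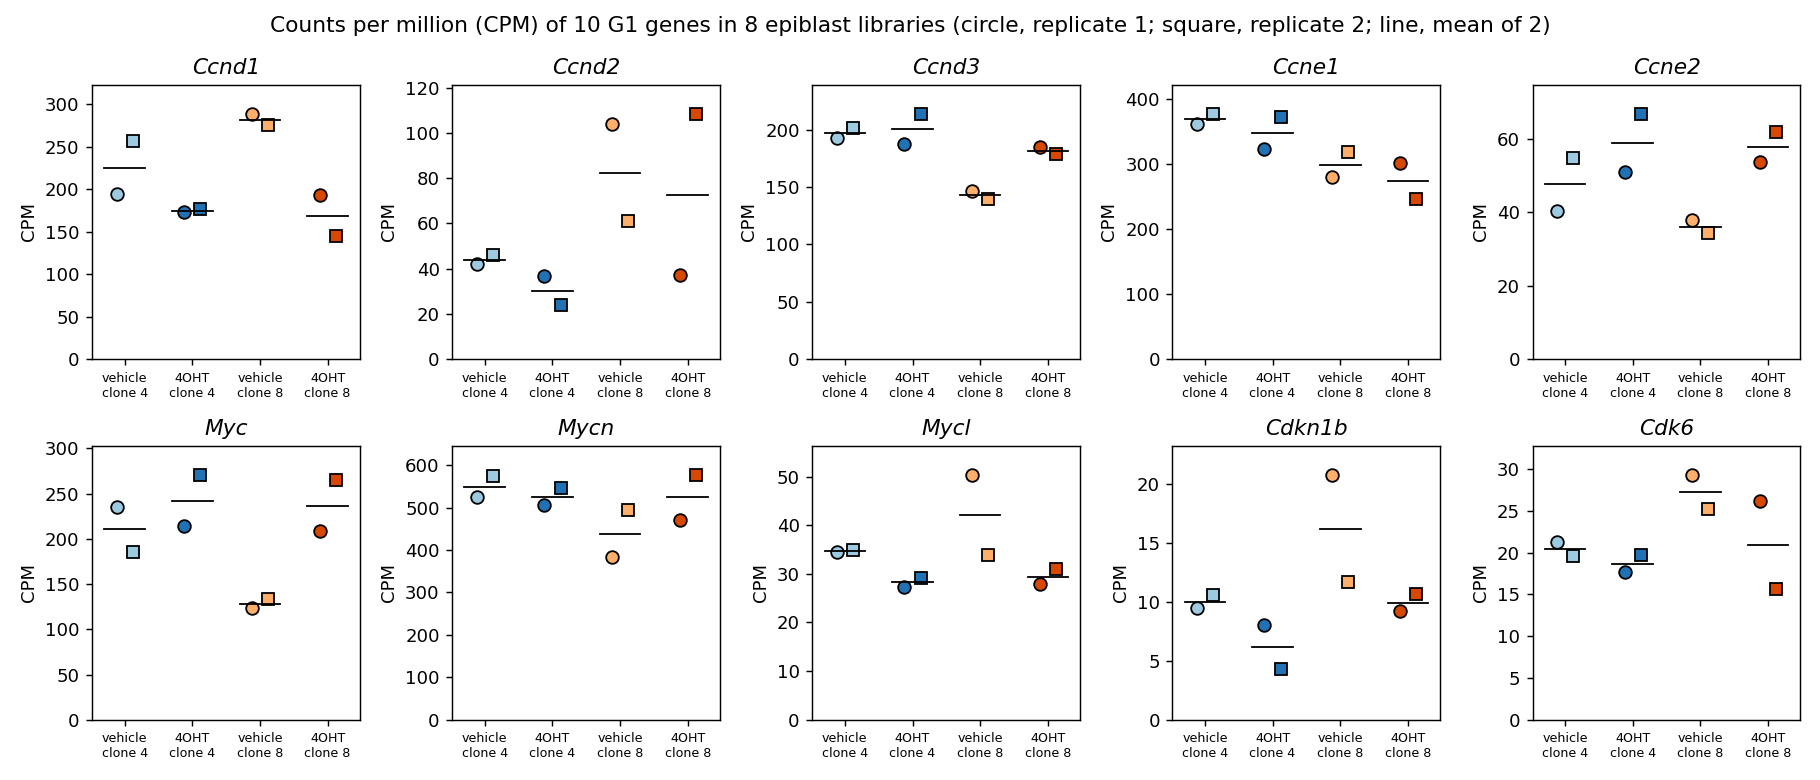
CPM of each gene (vertical axis, linear, from 0) in the 4 groups (horizontal axis), with 1 point per library and a line at the mean of the 2 libraries. Ccnd1 runs from 194 to 288 CPM in vehicle and from 145 to 193 CPM in 4OHT libraries, and Myc is lowest in the vehicle libraries of clone 8, at 123 and 133 CPM.

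Among the D cyclins, Ccnd1 (ENSMUSG00000070348; GRCm38 chr7:144929931-144939925, minus strand) encodes cyclin D1, the D cyclin best known as a target of growth factor signalling. It stood at 194 and 256 CPM in vehicle and 173 and 176 CPM in 4OHT libraries of clone 4, and at 288 and 275 CPM in vehicle and 193 and 145 CPM in 4OHT libraries of clone 8. Every 4OHT library was below every vehicle library, although the lowest vehicle value and the highest 4OHT value nearly met. The log2 fold change was -0.37 (SE 0.16) in clone 4 and -0.74 (SE 0.16) in clone 8, in edgeR's fit of the 4 groups. The value in clone 4 was -0.15 without vehicle replicate 2 and -0.55 without vehicle replicate 1.

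Ccnd2 (ENSMUSG00000000184; chr6:127125162-127152193, minus strand), which encodes cyclin D2, stood at 42.0 and 46.0 CPM in vehicle and 36.8 and 23.8 CPM in 4OHT libraries of clone 4. In clone 8 it was 104 and 60.9 CPM in vehicle and 37.0 and 108 CPM in 4OHT libraries. The 2 high values, in vehicle replicate 1 and 4OHT replicate 2 of clone 8, lay on both sides of the comparison, and the groups of clone 8 overlapped. Its log2 fold change of -0.18 (SE 0.44) in clone 8 became -1.16 without 4OHT replicate 2 and -0.54 without vehicle replicate 2, but 0.39 without 4OHT replicate 1 and 0.24 without vehicle replicate 1. Leaving out either of the latter libraries thus turned its direction. In clone 4 it was -0.54 (SE 0.44), and -0.89 or -0.26 without 4OHT replicate 1 or 2.

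Ccnd3 (ENSMUSG00000034165; chr17:47505051-47599691, plus strand) encodes cyclin D3. Its levels were 192 and 202 CPM in vehicle and 187 and 213 CPM in 4OHT libraries of clone 4, which overlapped, and 146 and 139 CPM in vehicle and 185 and 178 CPM in 4OHT libraries of clone 8, which did not. The 4OHT libraries of clone 8 thus stood near the level of clone 4, and the vehicle libraries below it. Log2 fold changes were 0.02 (SE 0.11) in clone 4, which ran from -0.07 to 0.11 and changed sign as single libraries were left out, and 0.35 (SE 0.11) in clone 8.

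Added per kilobase of exons, D cyclin transcripts were 67.6 to 88.9 in vehicle and 62.0 to 65.9 in 4OHT libraries, and these ranges nearly met. Ccnd1 was the largest part of the sum, and both sum and shares depend on the exonic lengths used. How often sums of other genes separate in this way was not measured, and nothing is read from it. Ccnd1 made up 61.0% to 72.3% of that sum in vehicle and 49.2% to 62.1% in 4OHT libraries. Ccnd3 contributed 18.7% and 19.7% in vehicle-treated clone 8 and 27.9% to 37.8% in the other 6 libraries. The share of Ccnd2 was 3.94% to 12.4% in 7 libraries and 18.3% in 4OHT clone 8 replicate 2, where Ccnd1 had its lowest share.

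**Figure D2:**
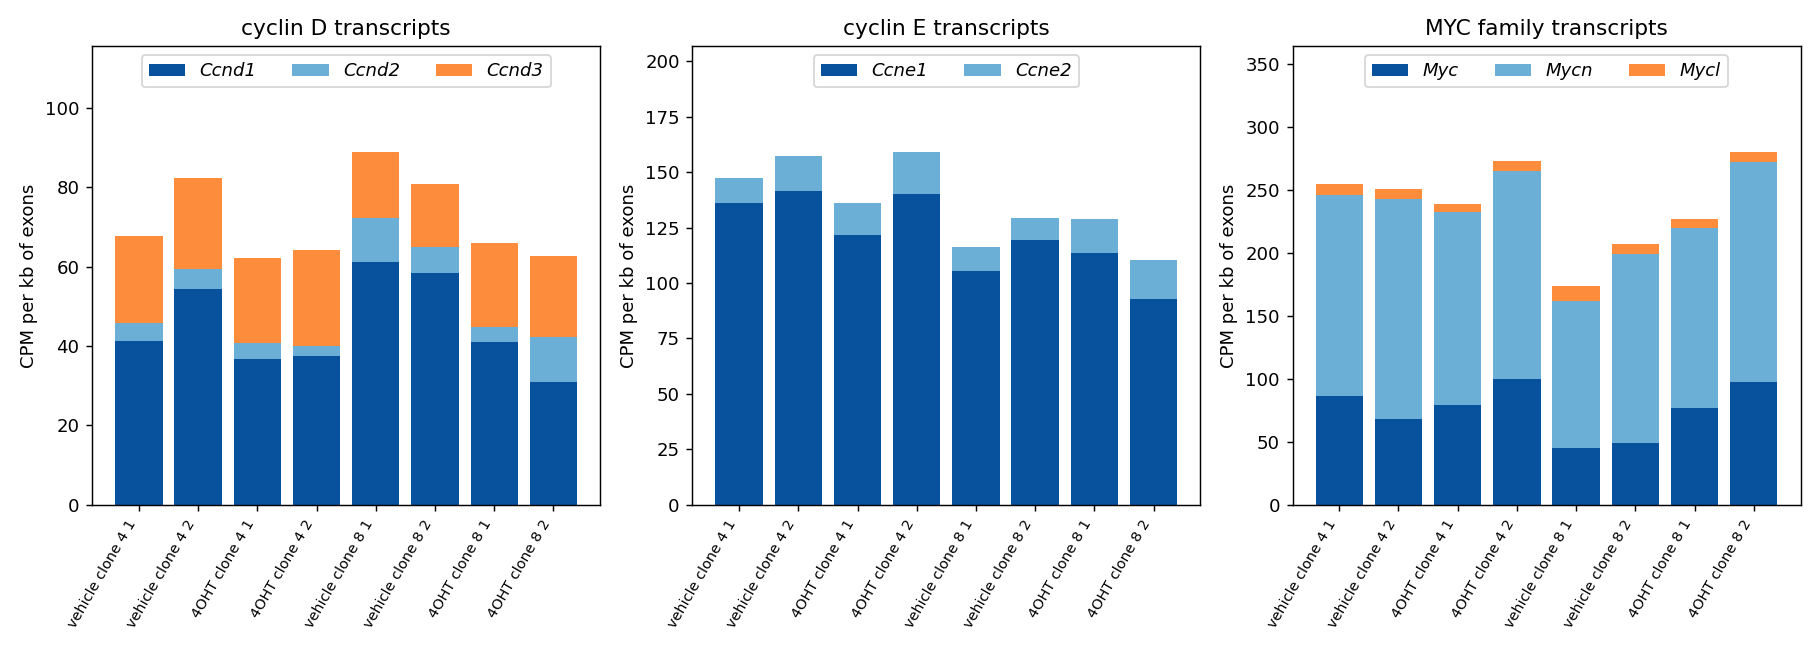
Stacked CPM per kilobase of exons (vertical axis, linear, from 0) of the D cyclins, E cyclins and MYC family genes, 1 bar per library, labelled by group and replicate. By this measure Ccnd1, Ccne1 and Mycn are the largest parts of their families in all 8 libraries. For Ccnd1 this depends on the exonic lengths used. The D cyclin bars run from 67.6 to 88.9 in vehicle and from 62.0 to 65.9 in 4OHT libraries. Nothing is read from this gap.

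Of the E cyclins, Ccne1 (ENSMUSG00000002068; chr7:38097984-38107534, minus strand) was the more abundant. It stood at 362 and 377 CPM in vehicle and 324 and 373 CPM in 4OHT libraries of clone 4, and at 280 and 318 CPM in vehicle and 302 and 247 CPM in 4OHT libraries of clone 8. The conditions overlapped in both clones, with log2 fold changes of -0.08 (SE 0.13) and -0.13 (SE 0.13), which ran from -0.19 to 0.01 in clone 4 and from -0.28 to 0.01 in clone 8 as single libraries were left out. Ccne2 (ENSMUSG00000028212; chr4:11191351-11204779, plus strand) stood at 40.4 and 54.8 CPM in vehicle and 50.9 and 66.6 CPM in 4OHT libraries of clone 4, which overlapped. In clone 8 its values were 37.7 and 34.4 CPM in vehicle and 53.7 and 61.7 CPM in 4OHT libraries, with both 4OHT libraries higher. Its log2 fold change was 0.30 (SE 0.19) in clone 4, from 0.10 to 0.54 as single libraries were left out, and 0.68 (SE 0.19) in clone 8. Ccne2 made up 7.61% to 9.97% of cyclin E transcripts per kilobase in vehicle and 10.7% to 16.0% in 4OHT libraries. The sums overlapped (116 to 157 and 110 to 159), and so did the CPM of Ccne2 over both clones. How often shares of other genes separate in this way was not measured, and nothing is read from it.

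Within the MYC family, Myc (ENSMUSG00000022346; chr15:61985391-61990374, plus strand) encodes the best-known member, a broad driver of growth. It stood at 235 and 186 CPM in vehicle and 214 and 271 CPM in 4OHT libraries of clone 4, which overlapped. In clone 8 it was 123 and 133 CPM in vehicle and 209 and 265 CPM in 4OHT libraries. The 4OHT levels of the clones were alike in range, and the low values were the vehicle libraries of clone 8. The log2 fold change was 0.20 (SE 0.17) in clone 4, where it ran from 0.03 to 0.39, and 0.88 (SE 0.17) in clone 8, where it ran from 0.70 to 1.05 as single libraries were left out. The extraembryonic ectoderm markers were lowest in those same vehicle libraries, and a smaller share of cells of a type cannot be told apart from less RNA per cell in pooled tissue.

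Mycn (ENSMUSG00000037169; chr12:12936093-12941914, minus strand), the dominant MYC gene of these libraries, stood at 525 and 573 CPM in vehicle and 505 and 546 CPM in 4OHT libraries of clone 4. In clone 8 it was 382 and 494 CPM in vehicle and 471 and 577 CPM in 4OHT libraries, and the conditions overlapped in both clones. Its log2 fold changes were -0.06 (SE 0.15) and 0.26 (SE 0.15), and both moved as single libraries were left out. The value in clone 4 ran from -0.12 to 0.00, turning sign without vehicle replicate 2, and that in clone 8 ran from 0.06 without vehicle replicate 1 to 0.42 without vehicle replicate 2. Mycn provided 60.8% to 72.3% of MYC family transcripts per kilobase and Myc 23.6% to 36.6%.

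Mycl (ENSMUSG00000028654; chr4:122995652-123002485, plus strand), the least abundant of the family, stood at 34.6 and 34.9 CPM in vehicle and 27.3 and 29.2 CPM in 4OHT libraries of clone 4. In clone 8 it was 50.3 and 33.9 CPM in vehicle and 27.8 and 31.0 CPM in 4OHT libraries. All 4OHT values lay below all vehicle values, and the vehicle library at 50.3 CPM stood apart from the other 3. Log2 fold changes were -0.30 (SE 0.20) in clone 4 and -0.52 (SE 0.20) in clone 8; without vehicle replicate 1 or 2 of clone 8 the latter was -0.23 or -0.81.

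Cdkn1b (ENSMUSG00000003031, chr6:134920401-134925513, plus strand) had the lowest mean CPM of the members, at 10.6. It stood at 9.47 and 10.6 CPM in vehicle and 8.07 and 4.31 CPM in 4OHT libraries of clone 4, and at 20.8 and 11.7 CPM in vehicle and 9.23 and 10.7 CPM in 4OHT libraries of clone 8. Within each clone both 4OHT libraries were below both vehicle libraries, with log2 fold changes of -0.70 (SE 0.35) and -0.71 (SE 0.34). Without vehicle replicate 1 or 2 the value in clone 8 was -0.26 or -1.10. In clone 4 it was -1.22 without 4OHT replicate 1 and -0.31 without 4OHT replicate 2. Cdk6 (ENSMUSG00000040274; chr5:3341485-3531008, plus strand), a catalytic partner of D cyclins, stood at 21.3 and 19.6 CPM in vehicle and 17.7 and 19.7 CPM in 4OHT libraries of clone 4. In clone 8 it was 29.3 and 25.2 CPM in vehicle and 26.2 and 15.6 CPM in 4OHT libraries. The conditions overlapped in both clones, with log2 fold changes of -0.13 (SE 0.24) and -0.38 (SE 0.24), which ran from -0.21 to -0.05 in clone 4 and from -0.80 to -0.06 in clone 8 as single 4OHT libraries were left out.

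Exons of Ccnd1, Ccnd2, Ccnd3, Ccne2 and Cdk6 overlap exons of a gene on the opposite strand in GENCODE M21, and the use of strand in counting is not given in the sources used here, so reads from the partner could be included in these 5 values. Myc, Mycn, Mycl, Ccne1 and Cdkn1b have no overlapping gene there.

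With genes called where the adjusted p of edgeR's quasi-likelihood test was under 0.05, 16.6% of tested genes were called within clone 8 (3041 genes), 0.0382% within clone 4 (7 genes) and 0.00546% in both clones together with clone as a term (1 gene). Of the 10 members, 3 were past that threshold within clone 8 (Ccnd1 lower, Ccne2 and Myc higher), 0 within clone 4 and 0 in both clones together, where 3088 genes had an unadjusted p under 0.05 and DESeq2 called 1053, Ccnd1 among them. Within clone 4, 1814 genes had an unadjusted p under 0.05 and DESeq2 called 468. The response differed between the clones for 2.83% of tested genes (1.08% higher and 1.75% lower in clone 8), and for 0 of the members. The responses to 4OHT were used in choosing the members, so these calls, by edgeR or by DESeq2, are no test of the members. Nothing is read from the counts or from the names. The calls within clone 8 were not stable. A fit of the 4 libraries of that clone alone called 3 genes, and the count also moved with the library left out, as given below. As single libraries were left out, the log2 fold change within clone 8 ran from -0.96 to -0.56 for Ccnd1. It ran from 0.57 to 0.77 for Ccne2 and from 0.70 to 1.05 for Myc. Scaling mattered as well. Of the calls within clone 8, 48.2% were higher with TMM scaling and 66.2% with library totals, which moved the median log2 fold change of all genes from 0.07 to 0.19. With library totals Ccnd1 stood at -0.61, Ccne2 at 0.80, Ccne1 at -0.00 and Ccnd3 at 0.47 within clone 8, and no member changed sign.

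**Figure D3:**
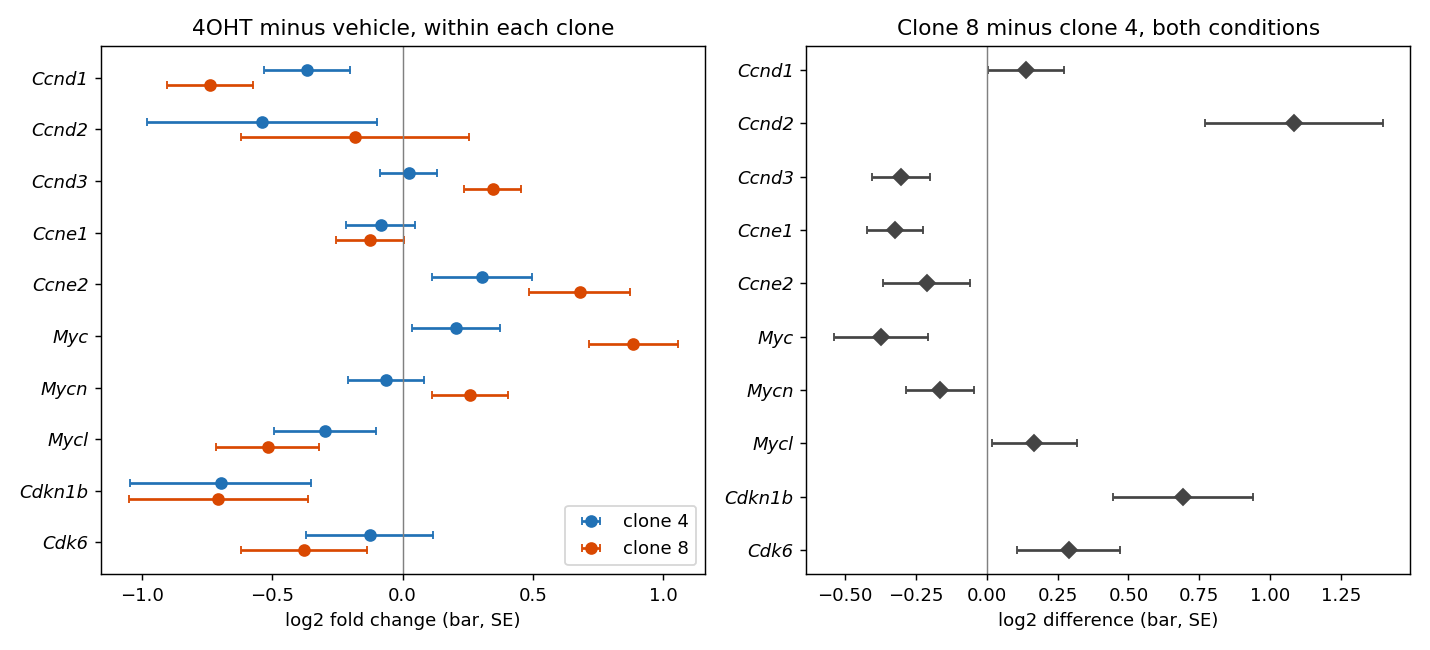
Left, log2 fold change of 4OHT over vehicle within clone 4 and within clone 8. Right, log2 difference of clone 8 from clone 4 over both conditions; bars are standard errors. Ccnd1, Ccnd2, Ccne1, Mycl, Cdkn1b and Cdk6 are below 0 in both clones on the left, and Ccnd2 is farthest from 0 on the right, at 1.08.

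Responses also varied with transcript length in clone 8. Among all tested genes, the median log2 fold change within clone 8 was -0.30 in the fifth with the shortest exons (median 1002 bases) and 0.27 in the fifth with the longest (9157 bases); within clone 4 it was -0.07 and 0.01. Myc, with 2717 bases of exons, stood at 0.88 within clone 8, where the 3874 genes of a length within 25% of it had a median of -0.01 and 80% of them lay between -0.85 and 1.32. Ccnd1, with 4709 bases, stood at -0.74 against a median of 0.11 for 4735 genes of like length (80% between -0.81 and 1.07). Ccnd3, with 8775 bases, stood at 0.35 against 0.25. For Ccnd3, 80% of genes of like length lay between -0.61 and 0.99. Within clone 8 every member lay inside such a range. Within clone 4, Ccnd2 (-0.54, 80% between -0.43 and 0.54) and Cdkn1b (-0.70, 80% between -0.48 and 0.66) lay below it. The other members were inside there. Genes were matched on length alone and not on expression level. The members were chosen with this response known, and the part of length was not tested.

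Clone 8 was compared with clone 4 with treatment as a term, a contrast that the choice of members did not use. No tested gene was called by edgeR (0%; 2921 genes at an unadjusted p under 0.05), so 0 of 10 members were. DESeq2 called 666 genes, Ccnd2 among them (log2 difference 1.09, adjusted p 0.0192). By edgeR, Ccnd2 was higher in clone 8 by 1.08 (SE 0.31, adjusted p 0.204), with a mean of 37.1 ± 9.67 CPM against 77.5 ± 34.4 CPM (SD, 4 libraries in each clone). Its clones overlapped through 4OHT clone 8 replicate 1, at 37.0 CPM, and the difference was 0.66 without 4OHT clone 8 replicate 2. Without the expression filter the edgeR adjusted p was 9.99e-09, and under the other alternatives run with edgeR it was 0.177 to 0.475.

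Ccne1 and Ccnd3 were the members with all 4 libraries of clone 8 outside those of clone 4, both lower, which held for 8.29% of tested genes (3.45% higher, 4.84% lower). Ccne1 was 359 ± 24.3 CPM in clone 4 and 287 ± 30.8 CPM in clone 8 (SD, n = 4 each), a log2 difference of -0.32 (SE 0.10) with an edgeR adjusted p of 0.210. Ccnd3 was 199 ± 11.5 and 162 ± 22.7 CPM (SD, n = 4 each), a difference of -0.30 (SE 0.10, edgeR adjusted p 0.228). For Cdkn1b the difference was 0.69 (SE 0.25, edgeR adjusted p 0.242) and for Myc -0.37 (SE 0.17, edgeR adjusted p 0.310). The remaining 5 members had differences of -0.21 to 0.29 and edgeR adjusted p-values of 0.452 to 0.642.

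Other genes of the pathway were read from 5 lists that hold none of the members. The lists were chosen with earlier results of these data known, so their calls describe and are no independent test. Genes named from them are mainly those with the lowest p among the genes called. In both clones together and within clone 4, 0 of their 121 genes were called by edgeR, as were 0 between clones; DESeq2 called 3, 1 and 6 of them in these comparisons. Within clone 8, 9 were called higher and 11 lower, against 8% and 8.6% of all tested genes; 0 were called without vehicle clone 8 replicate 1. In clone 4, where 49.3% of all tested genes had a log2 fold change above 0, this held for 20% of the growth genes, 28.6% of the S-phase genes and 17.4% of the mitotic genes, with list medians of -0.10, -0.07 and -0.13. It held for 40% of the G1 list and 53.3% of the MYC network partners. In clone 8 the growth, S-phase and mitotic lists stood at 52%, 60.7% and 60.9%, beside 53.7% of all tested genes. The G1 list and MYC network partners stood at 43.3% and 46.7% there.

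Of 30 G1 kinases, inhibitors, pocket proteins and E2F factors, 5 fell and 0 rose within clone 8, and the list's median log2 fold change was -0.06 beside 0.07 over all tested genes. With library totals, 5 of this list were called higher and 4 lower, and E2f1 was not called. Cdk4, the main kinase partner of D cyclins, fell from 1137 and 987 to 712 and 738 CPM (-0.55, SE 0.11, edgeR adjusted p 0.0165). Cdc25a, a phosphatase that activates CDK2, fell by 0.90 on the log2 scale (SE 0.22, adjusted p 0.0269), from 69.0 and 63.5 to 44.3 and 26.8 CPM. Fbxw7, whose product targets cyclin E and MYC for destruction, fell by 0.79 (SE 0.19, adjusted p 0.0266), and Cks1b, an adaptor of CDKs, by 0.53 (SE 0.13, adjusted p 0.0294). E2f1, an activating E2F, fell by 1.08 (SE 0.30, adjusted p 0.0396), from 13.4 and 12.6 to 8.06 and 4.22 CPM, while in clone 4 it was 3.93 and 4.26 CPM in vehicle and 5.61 and 5.39 CPM in 4OHT libraries. The difference of its response between the clones did not pass (edgeR adjusted p 0.0898). Cdk2, the partner of cyclin E, was not called in any comparison and had a log2 fold change of 0.12 in each clone (SE 0.12). Cdkn1a and Cdkn1c, inhibitors related to Cdkn1b, had values of -0.54 (SE 0.45) and 0.42 (SE 0.33) in clone 4 and -0.06 (SE 0.45) and 0.12 (SE 0.33) in clone 8. Rb1, the gene of the retinoblastoma protein, was at 0.367 to 1.92 CPM, with log2 fold changes of 0.25 (SE 0.58) and -1.06 (SE 0.58) that did not pass.

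None of 15 MYC network partners was called in any comparison by edgeR; within clone 8 the list had a median of -0.02, and DESeq2 called 1 of them higher and 1 lower. Max, the obligate partner of MYC proteins, stood at 133 to 207 CPM with log2 fold changes of 0.02 and 0.12 (SE 0.12 each). Of 25 growth and nucleolar genes bound by MYC, 2 rose and 2 fell within clone 8, against 5 higher and 2 lower with library totals. Mybbp1a, a nucleolar cofactor, rose by 0.43 (SE 0.11, edgeR adjusted p 0.0281), and Cad, an enzyme of pyrimidine synthesis, rose by 0.41 (SE 0.12, adjusted p 0.0423). Npm1, a nucleolar chaperone, fell by 0.54 (SE 0.11, adjusted p 0.0153). Odc1, the rate-limiting enzyme of polyamine synthesis and a classic MYC target, fell from 301 and 254 to 110 and 77.6 CPM in clone 8. Its log2 fold change there was -1.57 (SE 0.20, edgeR adjusted p 0.00764). Myc transcripts were higher after 4OHT in that clone, and a relation between these values was not tested.

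**Figure D4:**
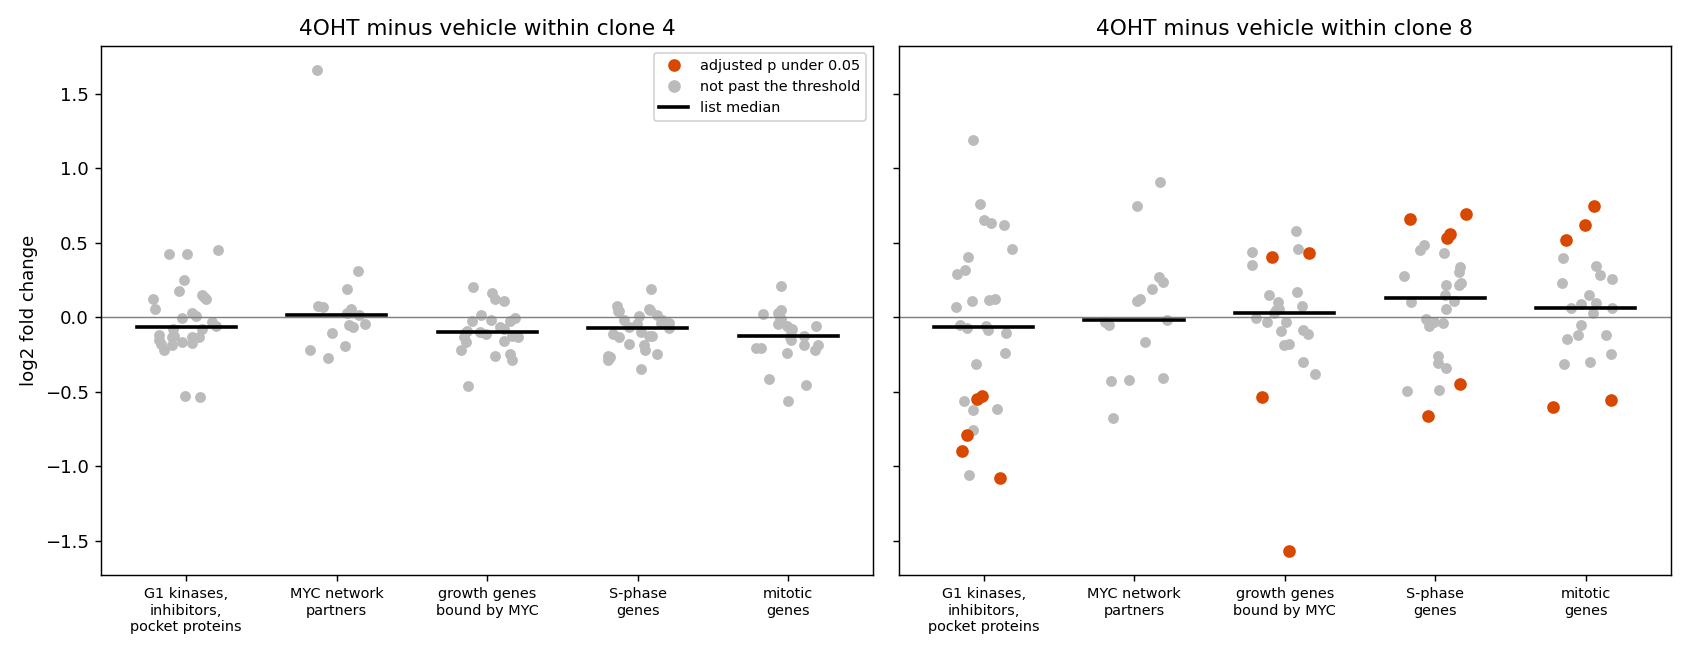
Log2 fold change of 4OHT over vehicle (vertical axis) for each gene of 5 lists (horizontal axis), within clone 4 on the left and clone 8 on the right; bars are list medians and orange points have an edgeR adjusted p under 0.05. No gene is called within clone 4, and 9 are called higher and 11 lower within clone 8, where Odc1 is lowest at -1.57.

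Among 28 S-phase genes driven by E2F, 4 rose and 2 fell within clone 8 (median 0.13); with library totals 9 were called higher and 1 lower. Mcm4, a subunit of the replicative helicase, rose from 273 and 339 to 438 and 550 CPM (0.69, SE 0.14, edgeR adjusted p 0.0164). Chaf1a, a histone chaperone, rose by 0.66 (SE 0.16, adjusted p 0.0262) and Mcm10, a replication initiation factor, by 0.53 (SE 0.12, adjusted p 0.0229). Gins2, a helicase cofactor, fell by 0.67 (SE 0.13, adjusted p 0.0150). Between clones, 24 of the 28 were lower in clone 8 by sign, with 14.3% above 0 beside 51.8% of all tested genes, a median of -0.24 beside 0.02, and 0 called by edgeR. Extraembryonic ectoderm markers were lower in clone 8 as well (1 of 13 above 0, median -0.71), and their part in this was not tested. Of 23 mitotic genes, 3 rose and 2 fell within clone 8 (median 0.06), against 6 higher and 2 lower with library totals. Kif20a, a kinesin of cytokinesis, rose by 0.75 (SE 0.17, adjusted p 0.0204) and Kif11, a spindle kinesin, by 0.52 (SE 0.13, adjusted p 0.0310). Ube2c, which encodes a ubiquitin enzyme of mitotic exit, fell by 0.60 (SE 0.13, adjusted p 0.0193), and Birc5 by 0.56 (SE 0.14, adjusted p 0.0272). The 9 pathway genes called higher had a median exonic length of 5803 bases and the 11 called lower 3402 bases, beside 5874 and 2513 bases for all genes called higher and lower within clone 8; the part of length was not tested. Without 4OHT clone 8 replicate 2, the G1 list had 1 call lower and the mitotic list 0, and the S-phase list 1, which was lower.

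The patterns most like those of Ccnd1 and Myc were searched among 9159 tested genes above the median level, by Pearson correlation of log2 CPM over the 8 libraries. For Ccnd1 the 3 closest were 1110012L19Rik (r = 0.982), Arl6ip4 (r = 0.980) and Ndufb8 (r = 0.975). For Myc they were Pkp3 (r = 0.989), Cand1 (r = 0.985) and Cggbp1 (r = 0.979). As many as 205 genes correlated with Ccnd1 and 298 with Myc at r above 0.9, and all of them share the libraries and their composition, so these names describe the order of the 8 values only.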

How the data were processed

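The authors deposited raw read counts in 1 table, with Ensembl genes as rows and the 8 libraries as columns. Per the submitters' processing notes, bcl2fastq 2.19.1, STAR 2.5.3a and the build mm10 were used; the counting program, annotation release and strand setting are not given in the sources used here. Symbols matched 52403 of 52636 identifiers. The filter was filterByExpr with the 4 groups (minimum count 10); counts were scaled by TMM and tested with edgeR 4.0.16 (estimateDisp, glmQLFit, glmQLFTest) in R 4.3.3 with Benjamini-Hochberg adjustment over all 18321 genes. A fit of the 4 groups gave the responses within clones and their difference, and a fit with clone and treatment gave the other comparisons. CPM uses TMM-scaled library sizes; SE is the log2 fold change divided by the square root of F; log2 CPM used a prior count of 2. Exonic lengths and coordinates are from GENCODE M21 (GRCm38), with lengths for 18293 tested genes. Alternatives were DESeq2 1.42.0, RLE factors, other filters and thresholds, a replicate block, each clone alone and each library left out. Library totals were added as an alternative after the data were seen. The procedure was also run on simulated counts, which held no differences in tissue composition between libraries. That run does not test the calls reported here. Members and lists were chosen with earlier results of these data known. Pathway genes named were up to 4 a list with the lowest p among those called, with Cdk2, Cdk4, Cdkn1a, Cdkn1c, Rb1, E2f1, Max, Mxd4 and Mnt free to be named in any case; marker lists also included 8 of maternal decidua and blood, which summed to 12.7 to 31.1 CPM.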

Additional observations from a re-analysis of the deposited data

Results flagged for a closer look

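Each member and the library totals were searched for 1 library of a condition that stood away from its other 3, in 22 groups of 4, where chance gives about 1 in 20 (1.1 here). Ccnd2 in 4OHT clone 8 replicate 2 was 108 CPM, where the next 4OHT library was at 37.0 CPM. Mycl in vehicle clone 8 replicate 1 was 50.3 CPM, where the next vehicle library was at 34.9 CPM. The total of 4OHT clone 4 replicate 2 was 72.5 M counts, where the next 4OHT library had 58.0 M.

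Odc1 was the 1 pathway gene whose response differed between the clones in the test of that difference: -1.73 on the log2 scale (SE 0.27, edgeR adjusted p 0.0269). Its own log2 fold changes were 0.16 in clone 4 and -1.57 in clone 8. Over all tested genes 2.83% were called in that test. In clone 4, Odc1 stood at 121 and 98.4 CPM in vehicle and 137 and 109 CPM in 4OHT libraries. The call on Odc1 was kept without vehicle clone 8 replicate 2 or either 4OHT library of clone 8, and lost without vehicle clone 8 replicate 1 or any 1 library of clone 4.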

How the results depend on the processing

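Counts of called genes moved with the settings. Within clone 4 (7 genes), the count was 728 without the expression filter, 78 with at least 10 counts in every library, 197 in a fit of that clone alone, 468 by DESeq2, and 0 at an adjusted p under 0.01 or with the replicate block. Within clone 8 (3041 genes) it was 272 at an adjusted p under 0.01 and 3 in a fit of that clone alone. In both clones together (1 gene) it was 1337 without the filter, 1053 by DESeq2, 1063 as the mean of the within-clone responses, and 0 with at least 10 counts, with the replicate block or at an adjusted p under 0.01. Between clones (0 genes) it was 938 without the filter, 666 by DESeq2, 2 with at least 10 counts and 1 with the replicate block. For the difference of responses (519 genes) it was 2114 without the filter, 1864 by DESeq2 and 0 at an adjusted p under 0.01; 38.2% of these calls were higher with TMM and 52.1% with library totals, a scaling added after the data were seen. Leaving out 1 library gave 0 to 267 genes within clone 4, 0 to 3179 within clone 8, 0 to 1 in both together, 0 to 5 between clones and 0 to 1205 for the difference. For the difference it was 0 without vehicle clone 8 replicate 1 or either 4OHT library of clone 4, 21 and 17 without a vehicle library of clone 4, 327 without vehicle clone 8 replicate 2, and 1205 and 880 without a 4OHT library of clone 8. Within clone 4 it was 267 and 262 without a 4OHT library of clone 8. The cause was not tested.

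Deviations of same-numbered vehicle and 4OHT libraries from their group means had correlations of 0.095 in clone 4 and -0.010 in clone 8. Low correlations over all genes cannot settle whether same-numbered pools shared an origin, and the main fits did not pair them. Under the replicate block 2897 genes were called within clone 8 and 451 for the difference. Of 590 values of the members under alternatives, 573 kept to their direction and side of the threshold or moved by less than the spread between replicates, 15 moved by more, and 2 passed the threshold (Ccnd2 between clones, as given above). RLE size factors gave the same members called within clone 8 as TMM.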
